A study of Homo sapiens with 27 samples.

Results

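The genes described here are vimentin (VIM) and 9 keratins, KRT5, KRT7, KRT8, KRT10, KRT17, KRT18, KRT19, KRT80 and KRT81, which encode intermediate filament proteins used to tell luminal, basal and mesenchymal cells apart. The 10 members were taken by gene symbol from the 26485 genes of the count table. RNA-seq had been done on 4 lines of T47D, an established luminal breast cancer cell line that keeps its own GATA3, the zinc finger transcription factor of luminal cells. Each line was 1 pool of cells selected with puromycin after infection with a pHAGE lentivirus. The control line carried the empty vector, and the other lines expressed a Ty1-tagged truncated GATA3, either the splice site deletion (Splice del), which loses the wild-type sequence of the second zinc finger, or the C321fs or A333fs frameshift, which lose part of it. Each line gave 3 libraries from 1 pool, so p-values measure the spread between libraries of a pool, and the effect of a mutant cannot be told apart from any other property of its pool. Sample records and methods give different growth media, and which one was used is open.

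Intermediate filaments are built from paired proteins. Keratins pair a type I (acidic) with a type II (basic) chain, so KRT8 with KRT18 or KRT19 forms the filament of simple and luminal epithelium. KRT5 with KRT14 is the pair of basal epithelial cells, and KRT17 is another basal and stress-responsive keratin. Vimentin is a type III protein that builds filaments with itself in mesenchymal cells, and a shift from keratins to vimentin is the classic change of filaments in epithelial-mesenchymal transition (EMT).

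Of the members, VIM rose in all 3 mutant lines, and keratins fell in each of them. The falls with A333fs, of KRT7, KRT19 and KRT80, were no longer called once the trend of fold changes over GC content and exon length was removed. Neither were those of KRT19 and KRT80 with Splice del and of KRT18 with C321fs. The falls of KRT8 with Splice del and C321fs and of KRT18 with Splice del stayed called. VIM was 2.76-fold higher than control with Splice del, 1.56-fold with C321fs and 3.03-fold with A333fs. KRT8 fell to 0.492 and 0.560 of its control level with Splice del and C321fs. VIM remained a minor transcript beside the keratins and made up 0.0157% of the summed keratin level in control and at most 0.0764% in any library of A333fs cells and 0.0782% in any of Splice del cells. The basal KRT5 was at or near 0 in every library, whereas luminal keratins remained among the most abundant transcripts.

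Promoter sequences are shown for one gene that rose, one that fell and one that was not called, with 250 bases before the RefSeq start (GRCh38.p14), read 5′ to 3′ on the gene's strand. Capitals mark a match to the GATA motif (AGATAA or AGATAG or TGATAA or TGATAG) or to the AP-1 motif (TGANTCA), each searched on both strands. The windows are chr10:17227991-17228240 on the plus strand for VIM, chr12:52926470-52926719 on the minus strand for KRT8 and chr17:40822615-40822864 on the minus strand for KRT10.
VIM: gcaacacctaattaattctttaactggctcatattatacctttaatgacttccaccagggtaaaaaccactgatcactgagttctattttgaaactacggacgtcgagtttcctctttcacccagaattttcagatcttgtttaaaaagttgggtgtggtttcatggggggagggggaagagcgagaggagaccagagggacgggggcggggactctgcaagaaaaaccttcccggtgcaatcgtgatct
KRT8: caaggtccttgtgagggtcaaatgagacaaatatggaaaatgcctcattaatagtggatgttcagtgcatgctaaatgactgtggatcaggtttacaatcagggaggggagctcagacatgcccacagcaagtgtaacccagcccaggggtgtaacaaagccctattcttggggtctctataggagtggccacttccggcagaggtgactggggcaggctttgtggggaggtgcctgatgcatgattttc
KRT10: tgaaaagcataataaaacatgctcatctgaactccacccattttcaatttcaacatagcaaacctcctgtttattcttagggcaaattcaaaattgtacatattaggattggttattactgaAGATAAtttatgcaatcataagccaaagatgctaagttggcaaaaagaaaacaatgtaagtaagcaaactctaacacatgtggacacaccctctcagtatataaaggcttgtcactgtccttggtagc
The VIM and KRT8 windows held neither motif, and the KRT10 window held 1 GATA match, in capitals above. The GATA motif is found in 22.3% and the AP-1 motif in 6.57% of all 35116 windows of this length, so 1 match among these genes is a description and no sign of binding. KRT5, the other member with an entry in the table, held neither motif. The shorter AGAT sequence that the paper found enriched at peaks of the truncated GATA3 was not searched. The entry for KRT8 starts inside the span that was counted for the gene, and KRT7, KRT17, KRT18, KRT19, KRT80 and KRT81 had no entry.

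Between 27872208 and 36788024 fragments were counted per library. Levels are given as CPM, counts relative to library size with a TMM factor for library composition, and as FPKM, the same value per kilobase of exon, where genes are compared with each other. Differences were tested with edgeR's quasi-likelihood test over 14789 genes. A gene was called, and is said to have risen or fallen, where the fold change exceeded 1.5 and the p adjusted after Benjamini and Hochberg was below 0.01. The introduced GATA3 also counts to the GATA3 gene, whose level was 1281 ± 50.8 CPM (SD, n = 3) in control, 1001 ± 45.0 with Splice del, 1142 ± 12.5 with C321fs and 1016 ± 11.03 with A333fs. Mutant and wild-type transcripts are therefore mixed in this count. The 12 luminal markers (ESR1, PGR, FOXA1 and others) were all detected and summed to between 7008 and 8380 CPM per library. Against control, 2 rose with Splice del (AGR2 and TFF1) and 1 fell with C321fs (MUC1). With A333fs 2 rose (AGR2 and TFF1) and 2 fell (MUC1 and SPDEF). These falls with A333fs were no longer called once the trend over GC content and exon length was removed (log2 -0.43 and -0.31). Of 18 mesenchymal markers, 9 or 10 did not exceed 3 counts in any library of a line, among them CDH2, ZEB1, SNAI2, PDGFRA and PDGFRB in all 4 lines. By these markers the libraries were those of a luminal line.

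The members VIM, KRT7, KRT8, KRT10, KRT18, KRT19 and KRT80, 7 in all, passed the filter on low counts. KRT5, KRT17 and KRT81 did not. A test of any difference among the 4 lines passed an adjusted p of 0.01 for 6 of the 7, as against 56.2% of all genes tested, and KRT10 did not pass (adjusted p = 0.14, edgeR's quasi-likelihood F-test). With Splice del 1 member was called higher (6.21% of all genes tested) and 4 lower (4.53% of all genes), and 10.7% of all genes were called in either direction. With C321fs 1 was called higher (4.63% of all genes) and 2 lower (2.26%), with 6.88% of all genes called. With A333fs 1 was called higher (5.46% of all genes) and 3 lower (6.81%), with 12.3% of all genes called. The median log2 fold change of the tested members was -0.64, -0.54 and -0.49 with Splice del, C321fs and A333fs, while that of all genes tested was 0.03, 0.02 and 0.01. The 3 comparisons share the control libraries.

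VIM (type III; chromosome 10 from 17228259 to 17237593 of hg38, plus strand) was a weakly expressed gene in these cells. Its level in control libraries was 2.61, 2.98 and 3.47 CPM, from 77, 93 and 100 counts. It was 8.23, 8.57 and 8.22 CPM with Splice del, 4.17, 5.17 and 4.83 CPM with C321fs and 10.4, 8.87 and 8.25 CPM with A333fs. All 9 mutant libraries exceeded all 3 control libraries, as was so for 15.7% of all genes tested. VIM was called higher in each mutant line, as were 1.6% of all genes, and no member was called lower in all 3 lines, as 0.71% of genes were. The C321fs libraries lay between control and the other mutants, and Splice del overlapped A333fs. The log2 fold change against control was 1.46 with Splice del (SE 0.12, adjusted p = 2.6e-07), 0.64 with C321fs (SE 0.13, adjusted p = 0.001) and 1.598 with A333fs (SE 0.12, adjusted p = 7.7e-08). The C321fs value lay close to the fold limit, and the call was lost without control replicate 1 (log2 fold change 0.55) or without C321fs replicate 2 (0.57).

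The lines also differed from each other in VIM. Its level was 1.77-fold higher with Splice del than with C321fs (log2 0.82, SE 0.12, adjusted p = 0.00014), the only member called in that comparison, in which 1.76% of all genes were called higher and 2.64% either way. It was 1.94-fold higher with A333fs than with C321fs (log2 0.96, SE 0.11, adjusted p = 1.4e-05), again the only member called, with 2.47% of all genes called higher and 5.55% either way. Between A333fs and Splice del the log2 difference was 0.13 (SE 0.11, adjusted p = 0.4). No member was called there, where 3% of all genes were called, although 3 members passed the adjusted p alone (11.9% of all genes did).

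Exons of VIM overlap those of the antisense gene VIM-AS1 over 641 bases, 30.0% of the counted VIM length. Counting was unstranded and skipped fragments over several genes, so VIM and VIM-AS1 were each counted outside the overlap, and reads of either strand went to the gene at that position. VIM-AS1 had 0.237, 0.385 and 0.347 CPM in control, 1.63, 1.80 and 2.19 CPM with Splice del, 0.487, 0.590 and 0.454 CPM with C321fs and 1.97, 2.11 and 2.00 CPM with A333fs. Splice del and A333fs libraries lay well above the others. The log2 fold change of VIM-AS1 against control was 2.50 with Splice del (adjusted p = 5.5e-07) and 2.63 with A333fs (adjusted p = 2.4e-07). With C321fs it was 0.64 (SE 0.29, adjusted p = 0.092) and was not called. The 2 genes were thus ordered alike across the lines, and the unstranded counts cannot tell transcripts of one from those of the other where they are not annotated.

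Levels of other mesenchymal genes are given beside VIM. The 18 markers summed to between 78.0 and 88.9 CPM in control, 80.2 and 88.5 with Splice del, 62.3 and 75.7 with C321fs and 85.4 and 89.5 in the A333fs libraries, so the sum overlapped control with Splice del and A333fs while VIM did not. COL1A1 weighs most in this sum, with up to 1866 counts in a library beside at most 764 (FN1) for any other marker. With Splice del 3 of the 8 tested markers rose and 1 fell, with C321fs 1 rose and 1 fell, and with A333fs 4 rose and 3 fell. The markers called in every mutant line went in opposite directions. SPARC, a matricellular protein, rose from 0.246 ± 0.0382 CPM in control to 7.34 ± 0.756 with Splice del, 1.73 ± 0.0834 with C321fs and 11.9 ± 0.424 with A333fs (SD, n = 3). COL3A1, a fibrillar collagen chain, fell from 5.13 ± 0.222 CPM to 2.42 ± 0.229, 2.51 ± 0.274 and 1.63 ± 0.298 CPM. The other markers that rose are named here after their values were seen. DCN, the proteoglycan decorin, had 3, 1 and 2 counts in control, 216, 225 and 164 with Splice del, 1, 0 and 1 with C321fs and 383, 419 and 378 with A333fs, and was called higher with Splice del (adjusted p = 5.9e-11) and A333fs (adjusted p = 2.1e-12). DCN passed the filter on low counts only through the Splice del and A333fs libraries, where it was high, so its p-values are no independent support. LUM, the proteoglycan lumican, had 0.158 ± 0.0725 CPM in control, 1.82 ± 0.505 with Splice del, 0.373 ± 0.146 with C321fs and 4.71 ± 0.812 with A333fs, and was called higher with Splice del (adjusted p = 2.2e-06) and A333fs (adjusted p = 1.3e-08). LUM too passed the filter only with libraries of these lines, and SPARC only with mutant libraries, where they were high. Their p-values and calls are thus no independent support, and the counts of markers that rose include DCN, LUM and SPARC. DCN and LUM were high in the lines where VIM was highest, and their C321fs libraries overlapped control while those of VIM did not. TWIST1, a transcription factor of EMT, rose with A333fs (log2 0.73, adjusted p = 0.0016), where COL1A1 (log2 -0.83, adjusted p = 2e-06) and TAGLN (log2 -0.78, adjusted p = 1.6e-05) fell. With the trend over GC content and exon length removed, COL1A1 and TAGLN were no longer called (log2 -0.45 and -0.51), while TWIST1 was (0.96). The part of other cells in the VIM counts was not tested. In bulk RNA, more cells with VIM and more VIM per cell cannot be told apart.

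**Figure D1:**
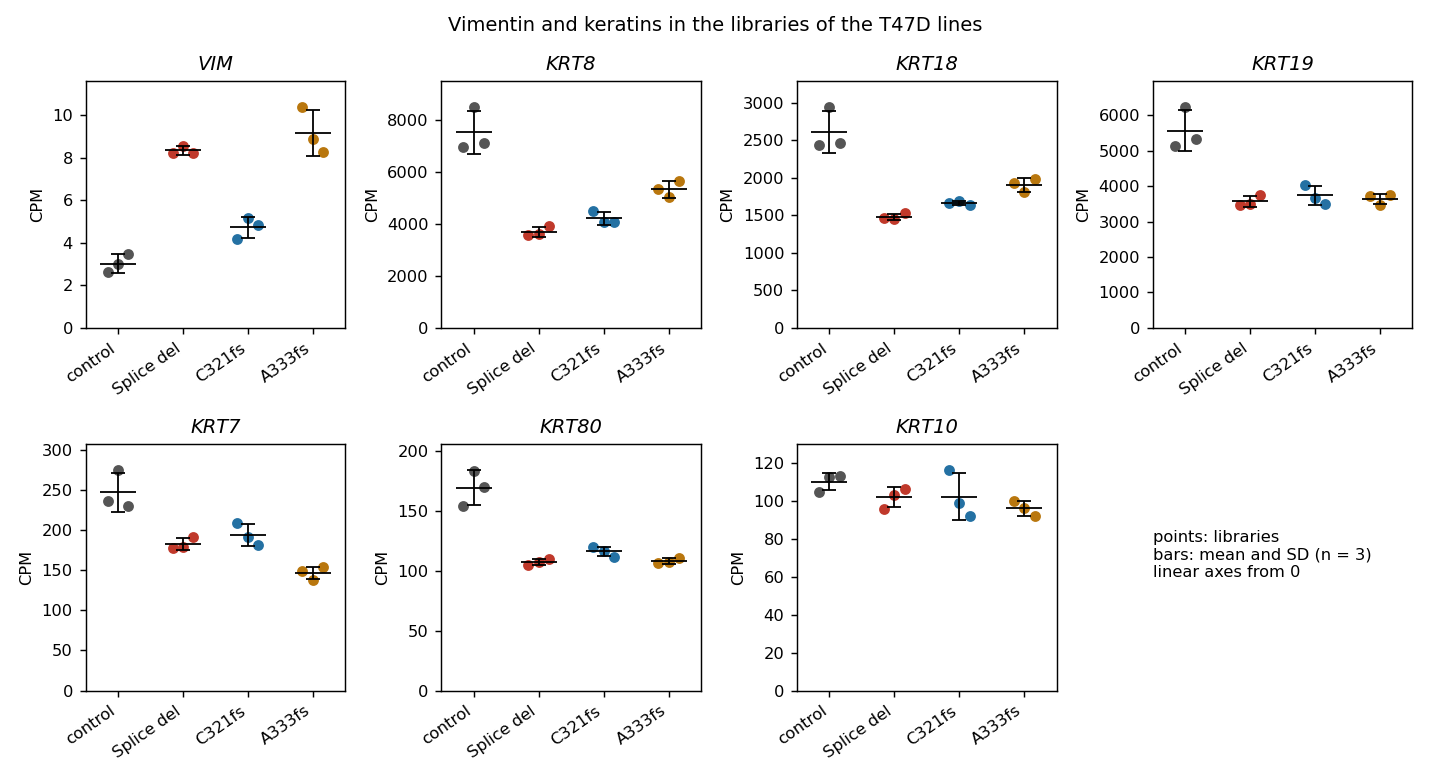
CPM (vertical axes, linear from 0) of the 7 tested members in each library of the 4 lines, with the mean and SD of 3 libraries as bars. VIM is lowest in control, between 2.61 and 3.47 CPM, whereas KRT8, KRT18, KRT19, KRT7 and KRT80 are highest there and KRT10 spans 92.0 to 116 CPM with overlap between most lines.

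KRT8 (type II; chromosome 12 from 52897187 to 52949866, minus strand), the obligate type II chain of simple epithelium, had the highest count of all genes in control cells. Its level was 6957, 8479 and 7118 CPM in control, 3566, 3602 and 3923 CPM with Splice del, 4498, 4064 and 4067 CPM with C321fs and 5327, 5019 and 5664 CPM in the A333fs libraries. The ranges of the 4 lines did not overlap, in the order control, A333fs, C321fs and Splice del, though C321fs and Splice del did not differ by the test (log2 -0.19, SE 0.08, adjusted p = 0.14). KRT8 fell by 1.02 on the log2 scale with Splice del (SE 0.08, adjusted p = 1e-07) and by 0.84 with C321fs (SE 0.08, adjusted p = 1.9e-06). With A333fs the log2 fold change was -0.49 (SE 0.08, adjusted p = 6.6e-05), a 1.41-fold lower level that did not reach the fold limit. KRT8 was 1.44-fold higher with A333fs than with Splice del (log2 0.53, SE 0.08, adjusted p = 0.00023) and 1.27-fold higher than with C321fs (log2 0.34, SE 0.08, adjusted p = 0.0043), both short of the fold limit.

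KRT18 (type I; chromosome 12 from 52948871 to 52952901, plus strand) is the partner of KRT8 and its neighbour in the genome. Its level was 2437, 2938 and 2468 CPM in control, 1465, 1446 and 1526 CPM with Splice del, 1663, 1685 and 1637 CPM with C321fs and 1927, 1808 and 1980.2 CPM in the A333fs libraries. The order of the lines was that of KRT8, with no overlap. By the test, Splice del against C321fs (log2 -0.17, SE 0.07, adjusted p = 0.12) and A333fs against C321fs (0.20, SE 0.07, adjusted p = 0.04) did not pass 0.01. KRT18 fell by 0.82 on the log2 scale with Splice del (SE 0.07, adjusted p = 2e-07) and by 0.65 with C321fs (SE 0.07, adjusted p = 4e-06), and the C321fs call was lost without control replicate 2 (log2 fold change -0.56). With A333fs its log2 fold change was -0.46 (SE 0.07, adjusted p = 3.5e-05), under the fold limit. A333fs exceeded Splice del by a log2 difference of 0.37 (SE 0.07, adjusted p = 0.0013). Across the 12 libraries, the gene most like KRT8 was KRT18, with a Pearson r of 0.990 over log2 CPM. The counted exons of KRT8 and KRT18 lie on opposite strands and overlap over 135 bases, 6.0% of the KRT8 and 8.8% of the KRT18 length.

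KRT19 (type I; chromosome 17 from 41523617 to 41528389, minus strand), the smallest keratin, was per kilobase the most abundant member, at 3783 ± 394 FPKM in control, beside 3319 ± 369 FPKM for KRT8 and 1703 ± 183 FPKM for KRT18. Its level was 5132, 6223 and 5339 CPM in control, 3474, 3505 and 3758 CPM with Splice del, 4031, 3679 and 3511 CPM with C321fs and 3718, 3472 and 3740.1 CPM in the A333fs libraries. The mutant lines overlapped each other and lay below control. KRT19 fell by 0.64 on the log2 scale with Splice del (SE 0.08, adjusted p = 5.7e-06) and by 0.61 with A333fs (SE 0.08, adjusted p = 6.4e-06). The log2 fold change of -0.57 with C321fs (SE 0.08, adjusted p = 2.7e-05) was just under the fold limit. Both calls were lost without control replicate 2 (log2 fold changes -0.55 and -0.52), the A333fs call also without A333fs replicate 2 (-0.54), and the C321fs change was called without control replicate 1 (-0.63), control replicate 3 (-0.60) or C321fs replicate 1 (-0.63). The direction was the same in each of these fits.

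KRT7 (type II; chromosome 12 from 52233170 to 52248925, plus strand) is a keratin of glandular ducts. Its level was 236, 275 and 231 CPM in control, 178, 179 and 192 CPM with Splice del, 209, 191 and 182 CPM with C321fs and 149, 138 and 154 CPM in the A333fs libraries. A333fs libraries lay below all others, unlike for KRT8 and KRT18, where A333fs lay closest to control. KRT7 fell by 0.75 on the log2 scale with A333fs (SE 0.07, adjusted p = 6.9e-07). Its log2 fold change was -0.44 with Splice del (SE 0.07, adjusted p = 0.00011) and -0.35 with C321fs (SE 0.07, adjusted p = 0.00092), both under the fold limit. A333fs was lower than C321fs by a log2 difference of -0.40 (SE 0.07, adjusted p = 0.00065) and than Splice del by -0.32 (SE 0.07, adjusted p = 0.0051).

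KRT80 (type II; chromosome 12 from 52168996 to 52192000, minus strand), a keratin found at cell junctions, had 154, 184 and 170.3 CPM in control, 104, 107 and 110.0 CPM with Splice del, 120.1, 116 and 112 CPM with C321fs and 106, 107 and 111 CPM in the A333fs libraries. All mutant libraries were lower than control. KRT80 fell by 0.66 on the log2 scale with Splice del (SE 0.06, adjusted p = 6.1e-07) and by 0.65 with A333fs (SE 0.06, adjusted p = 5.6e-07). The log2 fold change with C321fs was -0.54 (SE 0.06, adjusted p = 7.2e-06), called only without control replicate 1 (-0.61). No pair of mutant lines differed in KRT80 at an adjusted p below 0.01.

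KRT10 (type I; chromosome 17 from 40818117 to 40822611, minus strand), the type I chain of differentiating epidermis, was the keratin closest to control. Its level was 105, 112.7 and 113.2 CPM in control, 96.1, 103 and 106 CPM with Splice del, 116, 98.8 and 92.0 CPM with C321fs and 100.2, 96.3 and 92.4 CPM in the A333fs libraries. The log2 fold change was -0.11 with Splice del (SE 0.07, adjusted p = 0.21), -0.11 with C321fs (SE 0.07, adjusted p = 0.25) and -0.20 with A333fs (SE 0.07, adjusted p = 0.034). The Splice del and C321fs libraries overlapped control, and the A333fs libraries lay below it. None of the 6 comparisons of lines passed the test. KRT7, KRT8, KRT18, KRT19 and KRT80 had all 9 mutant libraries below all 3 control libraries, a pattern shared by 19.3% of all genes tested, and KRT10 did not.

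**Figure D2:**
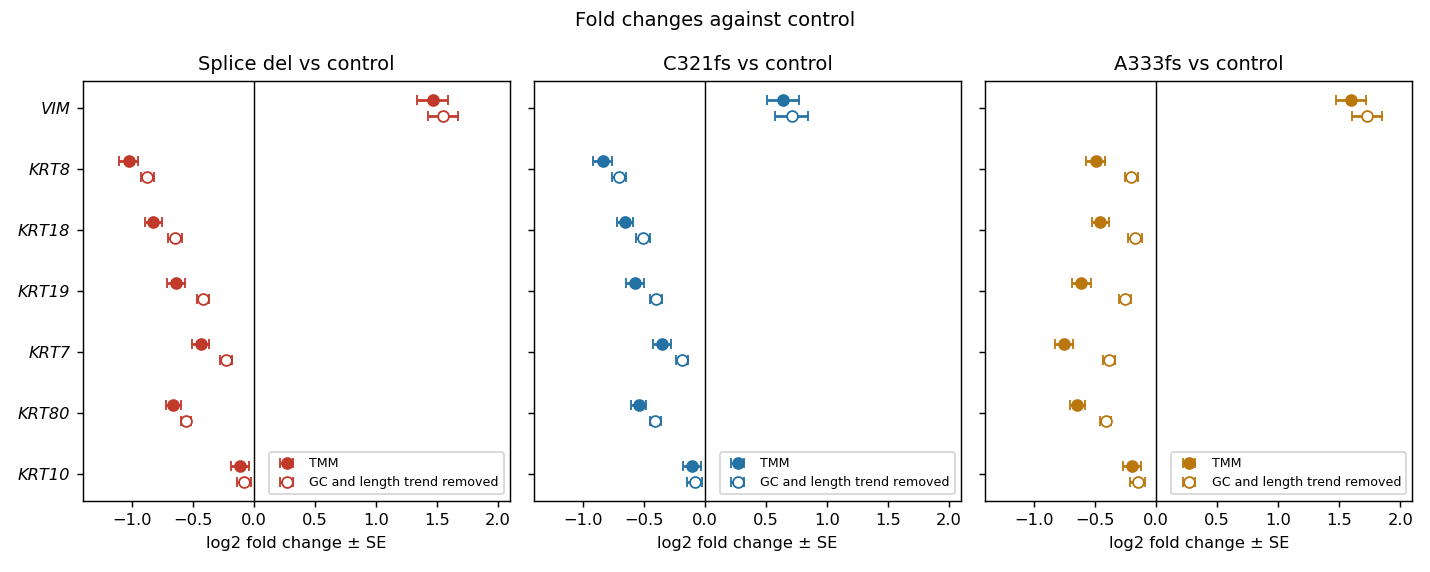
Log2 fold change against control (horizontal axes, bars show SE) of the 7 tested members in each mutant line, with TMM (filled) and after removal of the library's trend over GC content and exon length (open). VIM stays to the right in each panel, at 0.64 to 1.598 with TMM, and the keratins move towards 0 when the trend is removed, most with A333fs.

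Across genes, fold changes against control went with the GC content of exons. Spearman's rho over the 14789 genes, which are not independent replicates, was -0.51 with Splice del, -0.55 with C321fs and -0.67 with A333fs. The members ranged from 52.0% (KRT10) and 54.2% GC (VIM) to 62.1% (KRT19) and 62.5% (KRT7). After each library's trend over GC content and exon length was removed, VIM stayed called in all 3 lines, with log2 fold changes of 1.55, 0.71 and 1.73. KRT8 stayed called with Splice del (-0.87) and C321fs (-0.70) and KRT18 with Splice del (-0.64), but KRT18 with C321fs (-0.50) was not called. KRT19 came to -0.42 with Splice del and -0.26 with A333fs, KRT80 to -0.55 and -0.41 and KRT7 with A333fs to -0.38, and none of these was called. KRT8 was then higher with A333fs than with Splice del by 0.67 and was called (adjusted p = 2e-08). Upper-quartile normalization and library size without TMM factors also moved the fold changes of KRT7, KRT8, KRT18, KRT19 and KRT80 towards 0. With either, KRT19, KRT80 and, with C321fs, KRT18 were not called, while VIM, KRT8 and, with A333fs, KRT7 (log2 -0.64 and -0.60) kept their calls. With RLE size factors all 14 called differences between lines in the members held, and KRT19 was also called with C321fs (log2 -0.59). What the GC trend came from was not tested, and no batch separates it from the lines.

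Per kilobase, the 3 luminal keratins KRT8, KRT18 and KRT19 made up most of the keratin level, and their proportions differed between the lines. Together they took 1.44% ± 0.106 (SD, n = 3) of all counts in control, 0.913% ± 0.0306 with Splice del, 0.989% ± 0.0397 with C321fs and 1.10% ± 0.0540 with A333fs. KRT8 was 36.5% ± 0.203 of the summed FPKM of all keratins in control, 31.1% ± 0.311 with Splice del, 32.6% ± 0.523 with C321fs and 37.5% ± 0.632 with A333fs. KRT19 was 41.7% ± 0.271, 46.4% ± 0.0812, 44.6% ± 0.784 and 39.4% ± 0.507, and KRT18 18.8% ± 0.143, 18.4% ± 0.332, 19.02% ± 0.947 and 19.8% ± 0.0346 in the same order. The mean share of KRT19 was above control with Splice del and C321fs and below it with A333fs. That of KRT18 was above control with C321fs and A333fs and below it with Splice del. The shares were not tested. They come from levels that keep the trend over GC content and exon length, and KRT19 has 62.1% GC beside 58.8% for KRT8.

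The balance of chains followed from this. The type II sum over the type I sum was 0.630 ± 0.00509 in control (SD, n = 3), with libraries from 0.625 to 0.635. It was 0.509 ± 0.00689 with Splice del (0.504 to 0.517) and 0.542 ± 0.0120 with C321fs (0.529 to 0.550), without overlap with control. With A333fs it was 0.650 ± 0.0174 (0.638 to 0.670), just above the highest control library. KRT8 over KRT18, from FPKM, was 1.95 ± 0.0118 in control, 1.69 ± 0.0469 with Splice del, 1.72 ± 0.103 with C321fs and 1.90 ± 0.0353 with A333fs, where the libraries reached from 1.87 to 1.94 beside 1.93 to 1.96 in control. No test of the ratios was run, and the smallest two-sided p of an exact permutation test of 3 libraries against 3 is 0.1. These ratios too keep the trend over GC content and exon length.

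**Figure D3:**
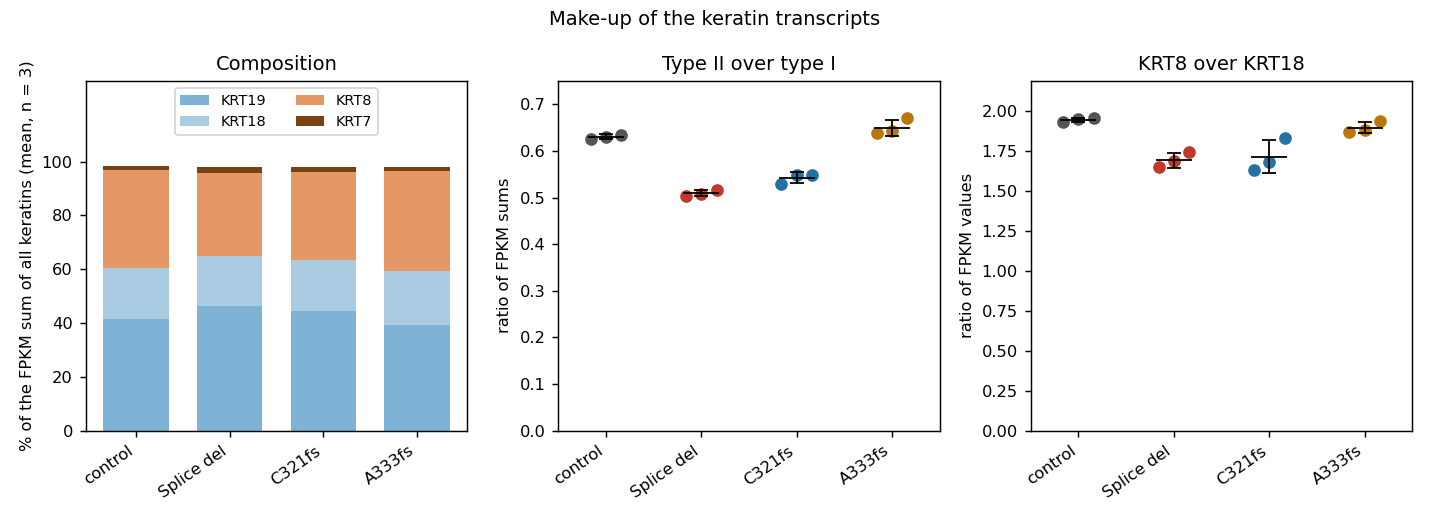
Left, share of KRT19, KRT18, KRT8 and KRT7 in the summed FPKM of all keratins (percent, means of 3 libraries); middle and right, ratio of the type II to the type I sum and of KRT8 to KRT18 per library, with mean and SD. The middle ratio is 0.509 with Splice del and 0.542 with C321fs, below the control value of 0.630, and 0.650 with A333fs.

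VIM stood low in this scale. Its FPKM was 1.41 ± 0.202 in control, 3.90 ± 0.0932 with Splice del, 2.21 ± 0.237 with C321fs and 4.29 ± 0.508 with A333fs (SD, n = 3), beside 145 ± 14.2 for KRT7, 51.5 ± 2.13 for KRT10 and 43.5 ± 3.78 for KRT80 in control. As a share of the keratin sum it was 0.0157% ± 0.00273 in control, 0.0746% ± 0.00425 with Splice del, 0.0390% ± 0.00583 with C321fs and 0.0684% ± 0.00878 with A333fs. The VIM length used includes the 30.0% that overlaps VIM-AS1, where fragments were skipped, so its FPKM, share and rank may read low. By FPKM, KRT19 ranked 4, KRT8 7 and KRT18 22 of the 26485 genes in control, and VIM ranked 11223. With A333fs the ranks were 7, 9 and 36 for these keratins and 8735 for VIM.

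The basal keratins and KRT81 were at the edge of detection. KRT5 (type II, the partner of KRT14) had no count in any control library, which allows up to 0.0962 to 0.104 CPM (3 counts per library, counting error only), and at most 3 counts in any other library. KRT17 had 1, 6 and 3 counts in control, 3, 2 and 0 with Splice del, 3, 3 and 13 with C321fs and 7, 8 and 11 in the A333fs libraries. The A333fs libraries all lay above control, but the gene did not pass the filter and was not tested. KRT81, a hair keratin, had 8 to 10 counts in control, 5 to 11 with Splice del, 4 to 9 with C321fs and 4 to 13 in the A333fs libraries, and the counts of all lines overlapped. By CPM the C321fs libraries (0.130 to 0.274) lay just below control (0.278 to 0.339), and KRT81 was not tested. Of the 100-base stretches of KRT81, 31% also occur in KRT86, and fragments that map to several places were not counted, so its level is uncertain.

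KRT14, the basal type I keratin, is no member but is the partner of KRT5. It had 1, 0 and 0 counts in control, 8, 3 and 2 with Splice del, 1, 0 and 3 with C321fs and 18, 16 and 21 in the A333fs libraries. The A333fs libraries lay above all others, and KRT14 was called there against control (adjusted p = 2.2e-05), C321fs (adjusted p = 0.00024) and Splice del (adjusted p = 0.0031). KRT14 passed the filter on low counts only through the A333fs libraries, where it was high, so these p-values are no independent support. DESeq2 called it against control (adjusted p = 7.1e-05) but gave no adjusted p against C321fs or Splice del, so those calls rest on edgeR. From summed counts, the ratio of A333fs to Splice del was 4.45 (95% interval 2.40 to 8.87) and that to control, which rests on 1 control count, 51.0 (8.79 to 2052), both exact intervals that cover counting error only. At 0.569 ± 0.0539 CPM, the level with A333fs was still far below that of any luminal keratin. KRT14 is in the list of 10 basal and myoepithelial markers, of which 7 passed the filter. With Splice del none of these was called, as against 10.7% of all genes. With C321fs 1 rose (4.63% of all genes did), TP63, with at most 24 counts in a library. The TP63 call was lost with DESeq2 (adjusted p = 0.015) and with the trend over GC content and exon length removed (edgeR, adjusted p = 0.022). With A333fs 2 rose (5.46% of all genes did), KRT14 among them. None of the 7 fell. The median log2 fold change of the 7, KRT14 included, was 0.17, 0.15 and 0.51 with Splice del, C321fs and A333fs.

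**Figure D4:**
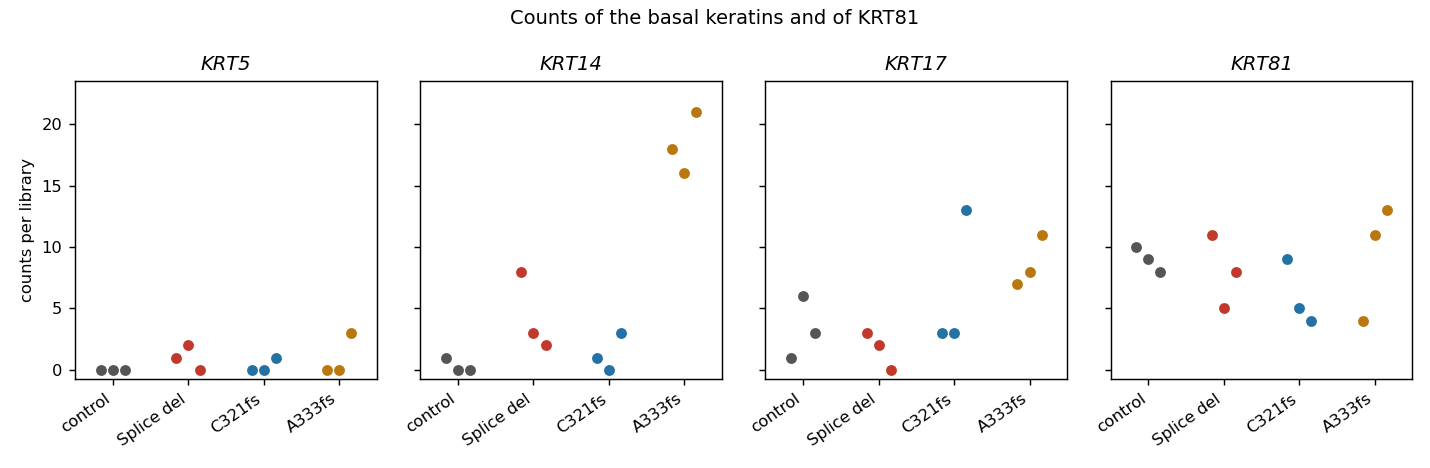
Counts per library (shared vertical axis) of KRT5, KRT14, KRT17 and KRT81 in the 4 lines, with a point for each of 3 libraries. KRT5 stays at 3 or fewer counts, and KRT14 reaches 16 to 21 counts with A333fs and at most 8 elsewhere.

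Of the 46 other keratins, 9 passed the filter on low counts. With Splice del 1 rose (6.21% of all genes tested did) and 2 fell (4.53%). With C321fs 2 fell (2.26%), and with A333fs 1 rose (5.46%), which was KRT14. KRT14 passed the filter only through the A333fs libraries, where it was high. It is therefore no independent support in this count or in the median and counts that follow. The median log2 fold change of the 9 was -0.20, -0.45 and 0.36, beside medians of all genes within 0.04 of 0. Between mutant lines, A333fs exceeded C321fs in 5 of the 9, where 2.47% of all genes were called higher. A333fs exceeded Splice del in 4, where 3% of all genes were called either way. KRT14 is in both counts. Splice del exceeded C321fs in 2, where 1.76% of all genes were called higher. None of the 9 was called in the opposite direction. KRT4, the type II chain of stratified mucosa, had 3.39, 4.14 and 3.33 CPM in control, 1.78, 1.596 and 1.64 CPM with Splice del, 0.761, 1.14 and 0.778 CPM with C321fs and 4.20, 3.99 and 4.29 CPM in the A333fs libraries. It fell by 1.11 on the log2 scale with Splice del (adjusted p = 1.6e-05) and by 2.03 with C321fs (adjusted p = 5.7e-07), and the A333fs libraries overlapped control.

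KRT13, the type I partner of KRT4, was also lower than control with Splice del and C321fs, though the order of these lines was not that of KRT4. It had 2.04 ± 0.336 CPM (SD, n = 3) in control, 0.858 ± 0.102 with Splice del, 1.05 ± 0.190 with C321fs and 2.11 ± 0.0847 with A333fs. It fell by 1.26 on the log2 scale with Splice del (adjusted p = 4.6e-05) and by 0.96 with C321fs (adjusted p = 0.00055). Both KRT4 and KRT13 were called higher with A333fs than with Splice del and with C321fs. KRT15, a type I keratin of basal progenitors, had 20.01 ± 2.22 CPM in control, 24.8 ± 1.19 with Splice del, 14.3 ± 0.806 with C321fs and 27.5 ± 3.37 with A333fs, and was called higher with Splice del (log2 0.79, adjusted p = 3.5e-05) and A333fs (0.94, adjusted p = 2.8e-06) than with C321fs. KRT23, a type I keratin, had 86.7 ± 2.52 CPM in control, 74.1 ± 0.923 with Splice del, 64.7 ± 5.55 with C321fs and 125 ± 1.88 with A333fs, and was called higher with A333fs than with C321fs (log2 0.95, adjusted p = 9.8e-09) and Splice del (0.75, adjusted p = 4.4e-07). KRT222, a keratin-like gene, rose with Splice del from 0.291 ± 0.0430 to 0.678 ± 0.136 CPM (adjusted p = 0.0056), and this call was lost with the GC trend removed (adjusted p = 0.029).

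**Figure D5:**
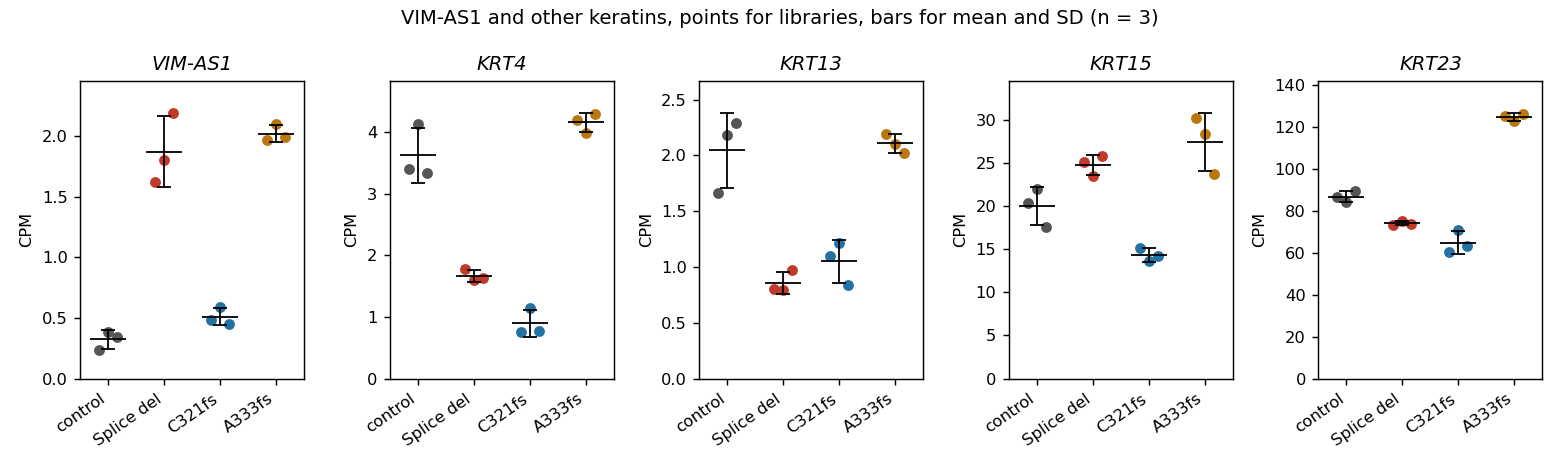
CPM (linear axes from 0) of VIM-AS1, KRT4, KRT13, KRT15 and KRT23 in each library of the 4 lines, with mean and SD of 3 libraries. KRT23 lies between 123 and 126 CPM in the A333fs libraries and at most at 89.3 CPM elsewhere, and VIM-AS1 is high with Splice del and A333fs libraries.

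Of 14 other intermediate filament genes, 8 passed the filter, 1 fell in each mutant line and none rose against control. LMNB2, a nuclear lamin, fell by 0.62 on the log2 scale in both Splice del (adjusted p = 3.6e-07) and A333fs (adjusted p = 3.2e-07), from 417 ± 12.0 CPM (SD, n = 3) in control to 271 ± 3.97 and 272 ± 5.88 CPM. BFSP1, a lens filament protein, fell by 0.70 with C321fs (adjusted p = 4.1e-06), from 13.5 ± 0.313 to 8.30 ± 0.418 CPM, and was 1.67-fold higher with A333fs than with C321fs. NES, the neural progenitor filament nestin that assembles with vimentin, was 3.75 ± 0.269 CPM with C321fs and 6.24 ± 0.458 CPM with A333fs, a called difference (log2 0.74, adjusted p = 4e-04), and also exceeded Splice del cells (0.64, adjusted p = 0.0016). PRPH, peripherin, was lower with A333fs than with C321fs (log2 -0.59, adjusted p = 0.008). DES, GFAP, INA, NEFL, NEFM and NEFH had at most 6 counts in any library.

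Of 11 genes that link filaments to junctions or other structures, 10 passed the filter. With Splice del 1 fell, with C321fs 2 and with A333fs 3, and none rose. The median log2 fold change was -0.23, -0.32 and -0.34. PLEC, the cross-linker plectin, fell by 0.67 with C321fs (adjusted p = 9.4e-06), and EVPL, envoplakin, by 0.60 with C321fs (adjusted p = 7.7e-06) and 0.64 with A333fs (adjusted p = 1.7e-06). JUP, plakoglobin, fell by 0.64 with A333fs (adjusted p = 4e-06), from 1337 ± 150 to 855 ± 44.6 CPM. PKP3, a desmosomal plakophilin, fell by 0.65 with Splice del (adjusted p = 2.4e-06) and by 0.68 with A333fs (adjusted p = 1.3e-06). Of the 73 calls over all 6 comparisons in these lists and the marker lists, 58 stayed called with the GC trend removed and none changed sign. Those of PLEC, EVPL, JUP, PKP3, LMNB2 and PRPH were lost, with log2 fold changes of -0.35 for PLEC and -0.35 and -0.17 for EVPL, -0.27 for JUP, -0.44 and -0.18 for PKP3 and -0.46 and -0.25 for LMNB2 against control, while the calls of KRT4, KRT13, KRT14, KRT15, KRT23, BFSP1 and NES held. Among the others lost were the calls of COL1A1, TAGLN, MUC1 and SPDEF with A333fs.

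The genes most like each member over the 12 libraries, by Pearson's r of log2 CPM and as a description only, included CD59 (0.987) and GALC (0.985) for VIM. For KRT7 they were SPDEF (0.988) and SOX12 (0.987), for KRT8 KRT18 (0.990) and EFHD1 (0.985) and for KRT18 TUBB (0.994) and RRS1 (0.991). For KRT19 they were PPP2R1A (0.995) and RBM42 (0.992), and for KRT80 TRIM28 (0.994) and ITPK1 (0.994). Among the members, KRT19 and KRT80 had an r of 0.984, VIM and KRT7 of -0.88 and KRT8 and KRT10 of 0.42. These libraries share the lines and the GC trend, which enter each r.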

How the data were processed

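Paired-end RNA-seq was used from 12 of the 27 samples; the 15 ChIP-seq samples were not analysed here. The authors trimmed reads with Trimmomatic, aligned them to hg38 (the processing notes name HISAT2 without its role, while paths in the file header name STAR), kept properly paired reads and deposited fragment counts per gene from featureCounts 1.6.4, without normalization, pooling of replicates, strand or multi-mapping fragments. The deposited exon length of each gene gave FPKM. Genes were filtered with filterByExpr by line, normalized by TMM and fitted in edgeR 4.0.16 (R 4.3.3, glmQLFit and glmQLFTest) with 1 coefficient per line and 12 libraries in 1 fit. Benjamini-Hochberg adjustment was over all genes tested. The common dispersion was 0.00453. Members and gene lists were chosen with earlier results of these data known. Named genes were all members, the keratins, filament genes and linkers called in any comparison, markers called in all 3 mutant lines, GATA3, and the 2 most alike genes of each called member. VIM-AS1, which overlaps VIM, was added for that overlap. Other called markers were named after their values were seen. KRT14 belonged to a marker list and to the keratins. Alternatives were RLE and upper-quartile normalization, no filter, a minimum of 10 counts in every library, each pair's libraries alone, DESeq2 1.42.0, a threshold of 0.05 for the adjusted p, no fold limit, a replicate block, removal of each library's trend over GC content and exon length (loess, span 0.3, genes outside the lists, entered as offsets), fits without 1 library and, added after seeing the data, library size without TMM factors. The procedure was tested on simulated data. Promoters came from RefSeq (GRCh38.p14), 4 of the 10 members had an entry, and all 4 equalled hg38 at their coordinates. No library pair of a line agreed within counting noise.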

Additional observations from a re-analysis of the deposited data

Results flagged for a closer look

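Effects against control differed between mutant lines in 7 tests of the difference itself (edgeR's quasi-likelihood test, Benjamini-Hochberg adjusted p below 0.01, with the control libraries shared). By that rule, 618 of all 14789 genes were higher and 317 lower with Splice del than with C321fs. The numbers were 1005 and 1315 with A333fs against C321fs, and 684 and 1078 with A333fs against Splice del. VIM was higher with Splice del than with C321fs by a log2 difference of 0.8238 and with A333fs than with C321fs by 0.9571, and both exceeded the fold limit. KRT8 was higher with A333fs, by 0.3422 than with C321fs and by 0.5296 than with Splice del, and KRT18 by 0.3654 than with Splice del. KRT7 went the other way, with A333fs at -0.403 to C321fs and -0.3176 to Splice del cells. The keratin differences were under the fold limit of 1.5, and once the trend over GC content and length was removed KRT8 exceeded it against Splice del cells (log2 0.67) and KRT7 came to -0.20 and -0.16. The causes were not tested.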

How the results depend on the processing

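Called members against control numbered 5 with Splice del, 3 with C321fs and 4 with A333fs. For Splice del the number was 3 with upper-quartile normalization, 3 with the GC and length trend removed and 3 with library size without TMM factors. For A333fs it was 2, 1 and 2 in the same order. With no minimum fold change it was 6 with C321fs against control, 3 with A333fs against C321fs (1 with the limit) and 3 with A333fs against Splice del cells (0 with the limit), where the fit with the GC trend removed called 1, KRT8. Of all 14789 genes, 2382 were then called higher and 3067 lower with C321fs against control. The numbers were 1005 and 1315 with A333fs against C321fs, and 684 and 1078 with A333fs against Splice del. Fits without 1 library gave 4 to 5 members with Splice del, 2 to 4 with C321fs, 3 to 4 with A333fs against control, 0 to 1 with A333fs against Splice del (KRT8, log2 0.60 without A333fs replicate 2), 1 in the other pairs and 6 to 7 that differed among the lines. Of the 14 called differences none changed sign under any alternative, and 14 stayed called with DESeq2, with RLE and with the replicate block. Replicate numbers did not pair the libraries (residual correlations of same-numbered libraries averaged -0.00915 over 18 pairs, 2 above 0.1), and the replicate block gave log2 fold changes of 1.47 for VIM and -1.02 for KRT8 with Splice del.

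Only differences that were not called turned direction. KRT10 came to 0.0726 with Splice del and 0.0589 with C321fs against control and 0.0138 with Splice del against C321fs without TMM factors, to 0 with no filter, 0.0029 with the GC trend removed, 0.0338 without Splice del replicate 1 and 0.0949 without C321fs replicate 1 in that last pair, and to 0.0132 with A333fs against C321fs without C321fs replicate 1. KRT19 with A333fs against C321fs came to 0.1427 with the GC trend removed, 0.0191 without C321fs replicate 1 and 0.0299 without A333fs replicate 2, and against Splice del to -0.0134 without TMM factors. KRT80 with A333fs against Splice del came to -0.027 without TMM factors, -0.0063 without Splice del replicate 1 and -0.0051 without A333fs replicate 3. Over the fits without 1 library these differences ran from -0.0789 to 0.0949 and from -0.1608 to 0.0132 for KRT10 against C321fs (Splice del, A333fs), from -0.0817 to 0.0299 for KRT19 and from -0.0063 to 0.0483 for KRT80. The causes were not tested.

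Without TMM factors (0.884 to 0.943 in control, 1.01 to 1.05 in mutant libraries) the median of all genes moved to 0.22, 0.19 and 0.16 with Splice del, C321fs and A333fs. The split of called genes was then 2025 higher and 171 lower, 1518 and 110, and 1544 and 380, in place of 918 and 670, 684 and 334, and 808 and 1007. It was 1321 and 348, 1024 and 163, and 1329 and 475 with upper-quartile normalization, and 578 and 226 with A333fs with the GC trend removed. VIM rose in all 3 lines under each. Low counts limit KRT5, KRT17, KRT81 and KRT14, and 3 libraries of 1 pool limit every comparison.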
